A study of Arabidopsis thaliana with 6 samples.

Results

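Transcripts of 9 genes for pathogenesis-related (PR) proteins and plant defensins were followed in whole seedlings of Arabidopsis thaliana, out of 28259 loci in the deposited tables. The genes were taken by locus code and comprise 5 PR genes, PR1 to PR5, and 4 defensin genes of the PDF1 group, PDF1.1, PDF1.2A, PDF1.2B and PDF1.3. All 9 codes were present in the tables. Seedlings of the wild-type ecotype Columbia (Col-0) were 10 days old, had been raised in 10 h of light and 14 h of darkness a day, and were kept overnight in water in the light. The treated group then received 3-OH-C10:0 (3-hydroxydecanoic acid) for 8 h and the control group received its solvent, dimethyl sulfoxide (DMSO), for 8 h, with 3 RNA-seq libraries in each group. The labels name no gene deletion and no transgene. The labels state the dose both as 5 microM (characteristics) and as 5 mM (protocol), so the concentration is uncertain. 3-OH-C10:0 is a bacterial fatty acid derivative that triggers immunity in Arabidopsis by way of LORE, a lectin-type receptor kinase.

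PR proteins are small, mostly secreted proteins that accumulate in plants after infection. In Arabidopsis PR1, PR2 and PR5 are the usual markers of salicylic acid output, which runs through the receptor NPR1 and the TGA and WRKY transcription factors. PR3, PR4 and the defensin PDF1.2A are the usual markers of the combined jasmonate and ethylene output, in which the ERF-type factors ERF1 and ORA59 act on GCC boxes of the promoters. Defensins are short cysteine-rich peptides with antifungal activity, and the PDF1 group is a family of closely similar gene copies.

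Estimated counts summed to between 18064723 and 27131500 per treated library and to between 19390988 and 21000782 per DMSO library. Levels are in CPM, counts scaled to a library total of 1e6 after TMM, a trimmed mean that balances library composition. A count of 3 equals 0.115 to 0.168 CPM in treated libraries and 0.139 to 0.149 CPM in DMSO libraries. Intervals and floors reflect counting error alone. Nothing in the labels says that the replicates were grown apart, so p-values here measure the spread between these libraries, which may be technical. The adjusted p of a gene comes from the quasi-likelihood test of edgeR, adjusted by Benjamini-Hochberg over 19768 tested genes, and a gene is said to have risen or fallen where the adjusted p was under 0.05. Each log2 fold change is that of treated over DMSO with ± its standard error, and means are ± SD with n = 3 per group. Whole seedlings hold root and shoot. Of 23 root markers 13 fell and 3 rose (1 without treated replicate 1 or DMSO replicate 1, 0 with total-count scaling), with a summed level of 1020 to 1261 CPM in treated and 1650 to 1773 CPM in DMSO libraries. The root marker PYK10 alone held 593 to 877 CPM in treated and 1242 to 1338 CPM in DMSO libraries. The root sum and its difference between groups therefore mostly reflect PYK10. Of 12 shoot markers 10 fell and none rose in the edgeR test, 0 rising also at an unadjusted p under 0.05 and in DESeq2, with a summed level of 13610 to 20280 CPM in treated and 58030 to 63780 CPM in DMSO libraries. No marker of either list was at 0, fewer cells of a tissue and less RNA per cell cannot be told apart in such samples, and the part of these shifts in the results below was not tested.

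The 9 genes did not move as a group. PR1, PR3, PR4 and PDF1.1 rose, PR5 fell, and the defensins PDF1.2A, PDF1.2B and PDF1.3 did not pass the test. PR2 was found in the treated libraries alone and stayed under the filter on low counts, so 8 of the 9 were tested. PR1 passed that filter through its treated libraries alone. Of all tested genes 35.6% rose and 35.8% fell, 71.4% in either direction. Of the 8 tested members 4 rose and 1 fell, so 5 of 8 were called in all, no larger a share than among all tested genes. The median log2 fold change was 0.86 over the 8 tested genes and -0.04 over all tested genes. Treated and DMSO libraries did not overlap for 6 of the 9 genes, PR2 included, against 75.9% of all tested genes.

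**Figure D1:**
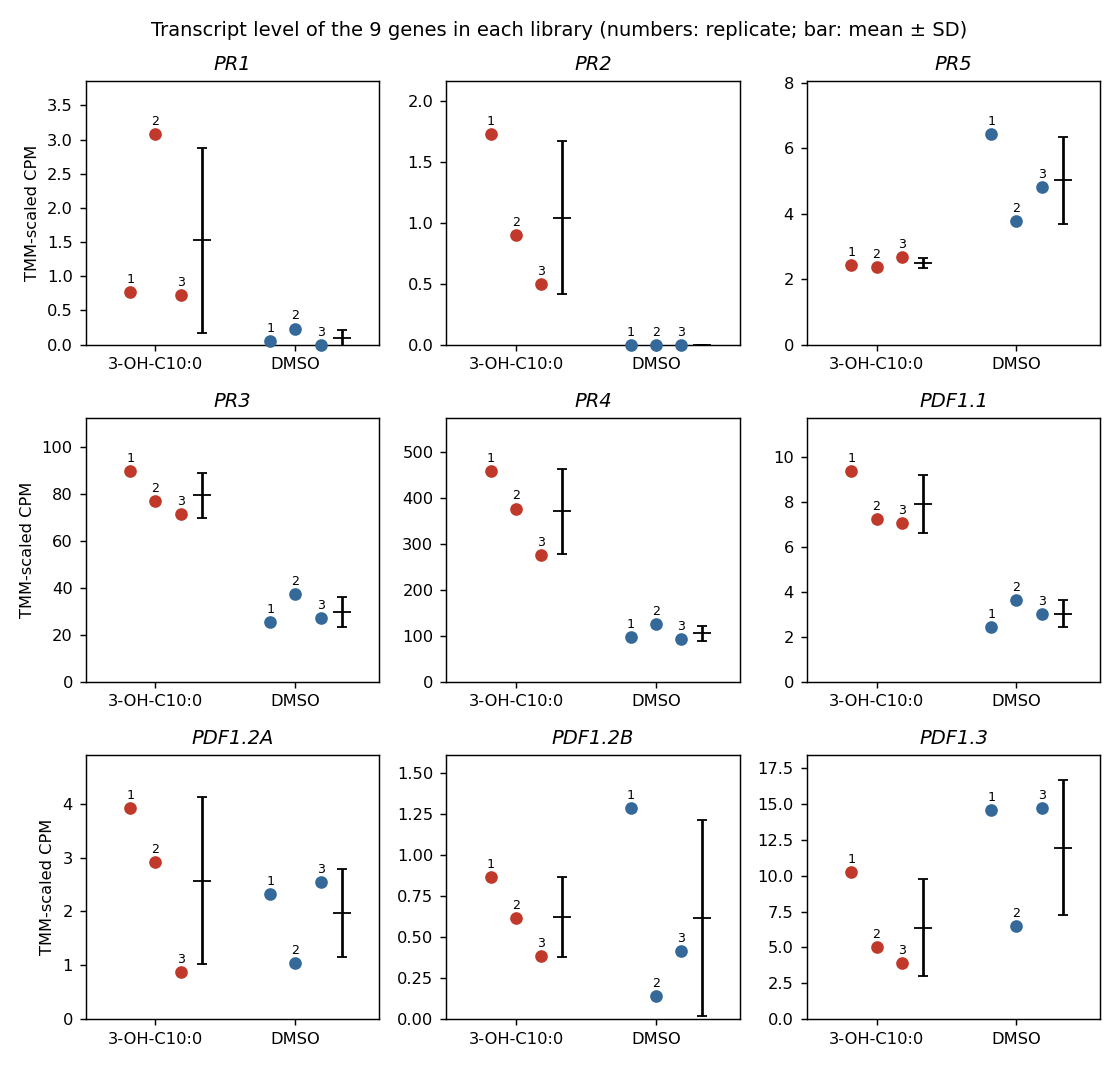
TMM-scaled CPM of the 9 genes in each library, 3-OH-C10:0 left of DMSO, with each panel on its own linear axis from 0. Points are libraries numbered by replicate, and the bar beside them is the mean ± SD (n = 3). PR1, PR2, PR3, PR4 and PDF1.1 lie higher in all treated libraries, PR5 lies lower, and PDF1.2A, PDF1.2B and PDF1.3 overlap.

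PR1 encodes a secreted protein of the CAP family that binds sterols, and it is the most used marker of salicylic acid responses. Its gene (AT2G14610) spans 6241640 to 6242541 of chromosome 2, minus strand, in the TAIR10.1 annotation and has 1 exon. The deposited counts were 15, 55 and 19 in treated replicates 1 to 3, against 1, 5 and 0 in DMSO replicates 1 to 3. All treated libraries lay above all DMSO libraries, and treated replicate 2 stood apart from the other two. The level was 1.53 ± 1.35 CPM in treated and 0.0952 ± 0.125 CPM in DMSO seedlings, and PR1 rose (log2 fold change 3.87 ± 0.989, adjusted p = 0.00823). PR1 entered the test through its treated libraries alone, since its DMSO counts lay under the filter on low counts. Without treated replicate 2 the log2 fold change was 2.90 (adjusted p = 0.00651), and without DMSO replicate 2 it was 5.63 (adjusted p = 0.00919). Its level remained low after the rise, with 0.92 to 4.01 FPKM (fragments per kilobase, scaled to library depth) in treated and 0 to 0.31 FPKM in DMSO libraries.

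PR2 encodes a secreted beta-1,3-glucanase that cleaves cell wall glucans. The gene (AT3G57260) spans 21188397 to 21189967 of chromosome 3, minus strand, in 2 exon blocks. It had 34, 16 and 13 counts in treated replicates 1 to 3, against 0, 0 and 0 in DMSO replicates 1 to 3. These 63 treated counts have a 95% Poisson interval of 48.4 to 80.6. Against a floor of 3 counts over the DMSO group, which equals 0.0477 CPM, the treated level of PR2 stood 20.8-fold higher. Without treated replicate 1 this ratio was 13.9. The counting error of the treated counts is not part of the ratio. A ratio between 13.7 and 14.1 was left when any 1 DMSO library was removed, since the same floor then stands over 2 libraries. Without the filter on low counts, edgeR gave an adjusted p of 0.000197. With 0 counts in each DMSO library that fit has no DMSO spread to measure, so PR2 is read here from its counts and not from a test. In FPKM the treated libraries held 1.34, 0.71 and 0.38, so PR2 was close to absent in DMSO and scarce in treated seedlings.

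PR5, a thaumatin-like protein, is counted with PR1 and PR2 as a salicylic acid marker but moved the other way. The gene (AT1G75040) spans 28177670 to 28179022 of chromosome 1, plus strand, in 2 exon blocks. Its levels were 2.45, 2.36 and 2.68 CPM in treated replicates 1 to 3, against 6.44, 3.78 and 4.82 CPM in DMSO replicates 1 to 3. The treated libraries lay close together and below all DMSO libraries. With 2.49 ± 0.166 CPM in treated and 5.01 ± 1.34 CPM in DMSO seedlings, PR5 fell (log2 fold change -0.998 ± 0.216, adjusted p = 0.0017). The call held under each of the 14 alternative settings, with log2 fold changes between -1.17 and -0.78.

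PR4 was by far the most abundant of the 9 genes. It encodes a hevein-like protein with a chitin-binding domain, and the gene (AT3G04720) spans 1285425 to 1286760 of chromosome 3, minus strand, in 2 exon blocks. Its levels were 459.7, 377.7 and 276.6 CPM in treated replicates 1 to 3, against 98.2, 125.1 and 93.9 CPM in DMSO replicates 1 to 3. The lowest treated library still stood well above the highest DMSO library. PR4 averaged 371 ± 91.7 CPM in treated and 106 ± 16.9 CPM in DMSO seedlings and rose 3.51-fold (log2 fold change 1.81 ± 0.196, adjusted p = 5.2e-05). PR3, a basic vacuolar chitinase (AT3G12500, chromosome 3, 3962136 to 3963984, minus strand, 2 exon blocks), moved by a similar amount. It stood at 89.7, 76.8 and 71.4 CPM in treated replicates 1 to 3, against 25.2, 37.2 and 27.2 CPM in DMSO replicates 1 to 3. Again the groups did not overlap, and PR3 rose 2.65-fold to 79.3 ± 9.42 CPM in treated seedlings, against 29.9 ± 6.38 CPM in DMSO seedlings (log2 fold change 1.41 ± 0.151, adjusted p = 3.4e-05). Whether PR3 and PR4 differ in their change was not tested.

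The defensin genes sit in pairs on the genome except for PDF1.1. PDF1.1 (AT1G75830) lies alone at 28472357 to 28472898 of chromosome 1, plus strand. PDF1.3 (AT2G26010) and PDF1.2B (AT2G26020) follow each other on chromosome 2, both on the plus strand, at 11087280 to 11088001 and 11089123 to 11089805, with 1121 bp and no annotated gene between them. PDF1.2A (AT5G44420) occupies 17906968 to 17907638 of chromosome 5, minus strand, and 1211 bp from it lies PDF1.2C (AT5G44430, 17908850 to 17909507), a copy outside the 9 genes that is given here because its reads could be confused with theirs. Each of the 5 genes has 2 exon blocks and 243 coding bases for 80 amino acids. Coding sequences were 93.8% identical between PDF1.2A and PDF1.2B, 93.4% between PDF1.2A and PDF1.2C and 94.2% between PDF1.2B and PDF1.3. PDF1.1 was 87.2% to 90.5% identical to the other copies. The longest run of bases shared without a difference was 72, between PDF1.2B and PDF1.3, and 52 between PDF1.2A and PDF1.2C. The sources used here give neither read length nor the treatment of reads with several matches, so values of single copies are uncertain to that extent, although all deposited counts of the 5 copies were whole numbers.

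The 60 coding bases in which the copies differ most show what separates them. They run from coding base 16 to 75, counted from the A of the start codon, and were read from the TAIR10.1 assembly in coding direction. Capitals mark the 19 positions at which at least 1 of the 5 copies differs, out of 41 such positions in the whole coding sequence.
PDF1.1: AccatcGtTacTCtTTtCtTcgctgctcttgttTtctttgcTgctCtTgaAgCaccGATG
PDF1.2A: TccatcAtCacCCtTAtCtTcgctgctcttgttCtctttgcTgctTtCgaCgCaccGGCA
PDF1.2B: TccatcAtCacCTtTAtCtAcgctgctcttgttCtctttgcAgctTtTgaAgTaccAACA
PDF1.2C: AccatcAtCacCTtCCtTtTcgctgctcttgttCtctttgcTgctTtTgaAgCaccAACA
PDF1.3: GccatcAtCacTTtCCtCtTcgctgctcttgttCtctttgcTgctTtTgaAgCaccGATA

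PDF1.1 was the only one of the 4 defensins to pass the test. It stood at 9.37, 7.24 and 7.04 CPM in treated replicates 1 to 3, against 2.43, 3.64 and 3.01 CPM in DMSO replicates 1 to 3. All treated libraries were above all DMSO libraries, and PDF1.1 rose 2.60-fold to 7.88 ± 1.29 CPM in treated seedlings, against 3.02 ± 0.605 CPM in DMSO seedlings (log2 fold change 1.38 ± 0.187, adjusted p = 6.3e-05). PDF1.3 was the most abundant copy in DMSO seedlings. It had 201, 89 and 102 counts (10.2, 4.99 and 3.90 CPM) in treated replicates 1 to 3, against 295, 138 and 318 counts (14.6, 6.52 and 14.7 CPM) in DMSO replicates 1 to 3. Its groups overlapped through treated replicate 1 and DMSO replicate 2, and PDF1.3 did not pass (log2 difference -0.92 ± 0.470, adjusted p = 0.127). It passed as lower without treated replicate 1 (log2 fold change -1.43, adjusted p = 0.0201) and without DMSO replicate 2 (-1.22, adjusted p = 0.0357).

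PDF1.2A, the defensin most used as a marker of jasmonate and ethylene responses, varied more within groups than between them. It had 77, 52 and 23 counts (3.92, 2.92 and 0.88 CPM) in treated replicates 1 to 3, against 47, 22 and 55 counts (2.33, 1.04 and 2.55 CPM) in DMSO replicates 1 to 3. The treated libraries held both the highest and the lowest value, and the log2 difference was 0.35 ± 0.557 (adjusted p = 0.595), with the opposite sign without treated replicate 1 (-0.10). PDF1.2B had fewer counts, with 17, 11 and 10 in treated replicates 1 to 3, against 26, 3 and 9 in DMSO replicates 1 to 3. The deposited counts and FPKM imply a length of 274 bases for PDF1.2B, against 438 for PDF1.2A and 495 for PDF1.3. In TAIR10.1 the exons hold 609 bases for PDF1.2B, 579 for PDF1.2A and 620 for PDF1.3. How much of each gene its counts cover is therefore uncertain. For PDF1.2B both groups summed to 38 counts, and the log2 difference was -0.00 ± 0.628 (adjusted p = 0.999), a value whose sign changed with the setting. With standard errors of this size neither a rise nor a fall of PDF1.2A or PDF1.2B is shown, and neither gene is shown to be unchanged. PDF1.2C had 12, 7 and 1 counts in treated replicates 1 to 3, against 7, 2 and 14 counts in DMSO replicates 1 to 3, and did not reach the filter on low counts.

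**Figure D2:**
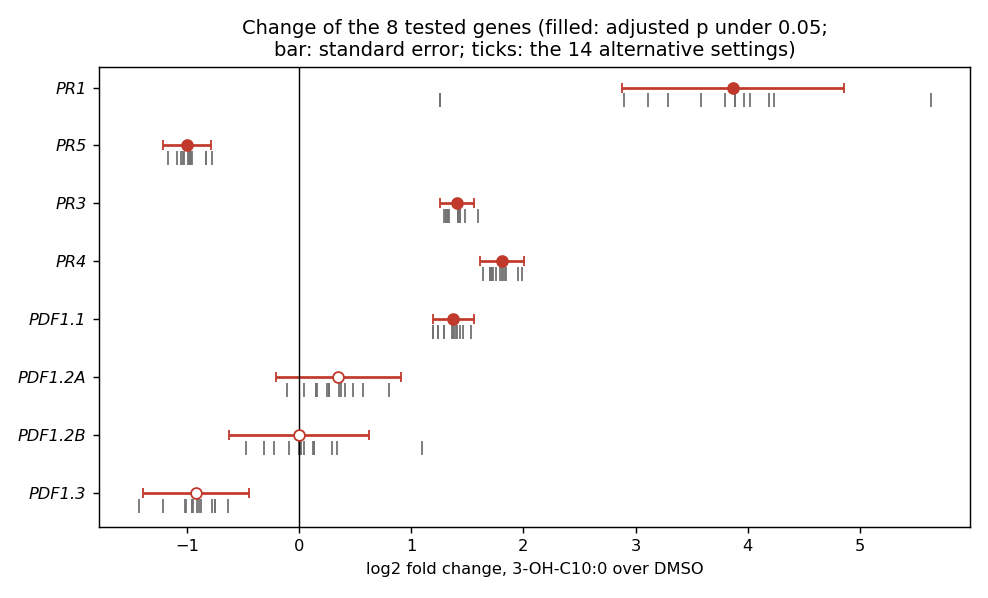
Log2 fold change, 3-OH-C10:0 over DMSO, of the 8 tested genes with its standard error, and below each the values under the 14 alternative settings as ticks. PR3, PR4 and PDF1.1 lie between 1.38 and 1.81 with narrow ranges, PR1 has a wide range, PR5 lies near -1, and the ticks of PDF1.2A and PDF1.2B fall on both sides of 0.

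The makeup of the PDF1 group differed between the groups of libraries. Per length, PDF1.1 made up 39.1%, 46.0% and 59.1% of the summed FPKM of the 5 copies in treated replicates 1 to 3, against 12.3%, 34.3% and 15.4% in DMSO replicates 1 to 3. PDF1.3 made up 36.9%, 27.4% and 28.3% in treated replicates 1 to 3, against 64.2%, 53.2% and 65.3% in DMSO replicates 1 to 3. The groups of libraries did not overlap for either share, and PDF1.1 was the larger of the pair in each treated library and the smaller in each DMSO library. The ratio of PDF1.1 to PDF1.3 was 1.06, 1.68 and 2.09 in treated replicates 1 to 3, against 0.192, 0.645 and 0.237 in DMSO replicates 1 to 3. These shares were computed after the values had been seen and have no test. They also depend on the gene lengths behind the deposited FPKM, which lie below the TAIR10.1 exons by unequal amounts. The implied length was 428 bases for PDF1.1 and 495 for PDF1.3, against 435 and 620 exon bases. It was 438, 274 and 454 bases for PDF1.2A, PDF1.2B and PDF1.2C, against 579, 609 and 548 exon bases. The ratio of PDF1.1 to PDF1.3 therefore depends on which lengths are used. The summed level of the 5 copies overlapped, with 54.0, 36.3 and 26.8 FPKM in treated replicates 1 to 3, against 47.9, 24.97 and 47.2 FPKM in DMSO replicates 1 to 3.

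**Figure D3:**
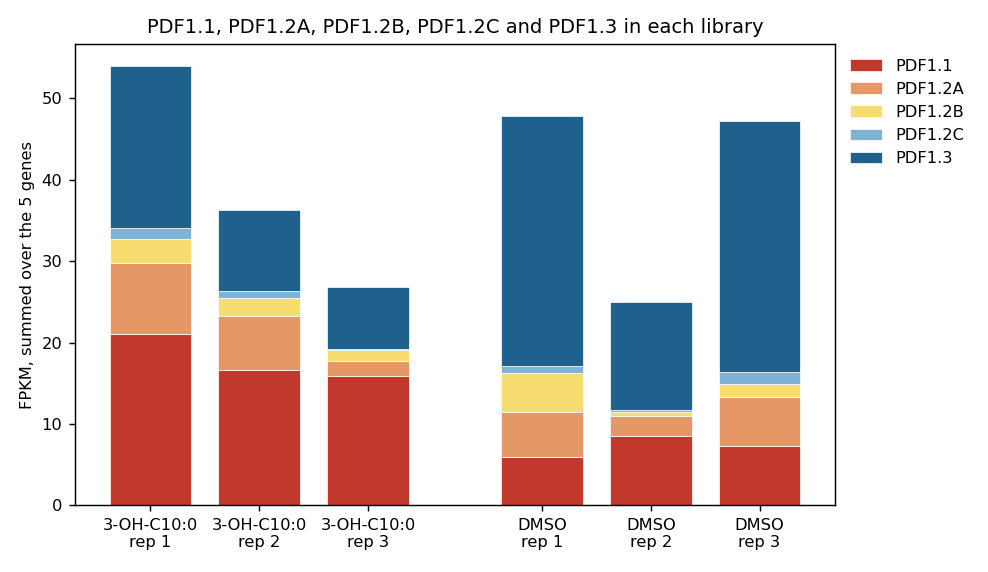
FPKM of PDF1.1, PDF1.2A, PDF1.2B, PDF1.2C and PDF1.3 stacked for each library, with the 3-OH-C10:0 libraries left of the DMSO libraries. PDF1.1 takes 39.1% to 59.1% of the stack in treated and 12.3% to 34.3% in DMSO libraries, while the height of the stacks overlaps between groups.

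The bases before the annotated starts of the 4 defensin genes were read for known motifs. The 250 bases upstream of each start were searched on both strands for the GCC box (GCCGCC, bound by ERF factors), the core of the W box (TTGAC, bound by WRKY factors), the core of the as-1 element (TGACG, bound by TGA factors) and the G box (CACGTG), of which TTGAC and TGACG can overlap by 4 bases. Of 27443 such windows of protein-coding genes 1.9% held a GCC box, 44.9% a W box core, 18.6% an as-1 core and 6.5% a G box. Windows of PDF1.2A and PDF1.2B held 1 GCC box each, from 222 to 217 and from 143 to 138 bases before the start. PDF1.1 and PDF1.3 held no GCC box and 1 W box core each, from 180 to 176 and from 44 to 40 bases before the start, on the opposite strand. PDF1.1 and PDF1.3 therefore held the same kinds of these motifs, and whether any motif bears on the levels was not tested. The 4 windows, given so that the copies can be compared, are from the TAIR10.1 assembly in the direction of transcription, and capitals mark the motifs.
PDF1.1, chr1:28472107-28472356, plus strand: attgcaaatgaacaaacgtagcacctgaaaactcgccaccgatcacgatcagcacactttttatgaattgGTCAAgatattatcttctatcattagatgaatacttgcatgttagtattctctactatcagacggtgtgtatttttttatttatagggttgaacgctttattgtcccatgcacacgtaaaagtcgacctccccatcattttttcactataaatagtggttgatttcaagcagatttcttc
PDF1.2A, chr5:17907639-17907888, minus strand: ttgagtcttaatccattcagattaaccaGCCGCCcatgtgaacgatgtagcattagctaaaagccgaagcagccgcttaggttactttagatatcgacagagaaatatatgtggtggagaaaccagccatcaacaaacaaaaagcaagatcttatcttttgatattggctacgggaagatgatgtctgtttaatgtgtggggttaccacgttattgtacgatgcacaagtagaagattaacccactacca
PDF1.2B, chr2:11088873-11089122, plus strand: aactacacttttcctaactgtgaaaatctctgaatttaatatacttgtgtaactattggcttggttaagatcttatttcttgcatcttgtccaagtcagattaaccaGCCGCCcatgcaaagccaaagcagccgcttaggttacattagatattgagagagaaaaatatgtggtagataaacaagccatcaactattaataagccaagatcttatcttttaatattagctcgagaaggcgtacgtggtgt
PDF1.3, chr2:11087030-11087279, plus strand: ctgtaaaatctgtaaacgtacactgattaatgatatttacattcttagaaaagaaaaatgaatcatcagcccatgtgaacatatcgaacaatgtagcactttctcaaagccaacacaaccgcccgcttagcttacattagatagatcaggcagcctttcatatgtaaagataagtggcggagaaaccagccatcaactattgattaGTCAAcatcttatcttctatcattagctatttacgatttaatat
Among the PR genes, PR1 and PR5 held 1 W box core each, PR3 held 1 as-1 core, PR2 held 1 G box, and none of these letters was found in the window of PR4. The window of PR3 overlaps 1 other annotated gene, and whether its as-1 core lies within that gene was not examined. A match is a description of the sequence and not a bound site.

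Per length, the order of the 9 genes differed little at the top. In treated seedlings PR4 led with 430.9 ± 106 FPKM, followed by PR3 with 68.3 ± 7.89 FPKM and PDF1.1 with 17.9 ± 2.82 FPKM, and none of these 3 overlapped the next lower of them. Below PDF1.1 each gene overlapped its neighbour: PDF1.3 had 12.5 ± 6.55 FPKM, PDF1.2A 5.71 ± 3.43 FPKM, PR5 2.47 ± 0.142 FPKM, PDF1.2B between 1.35 and 3.04 FPKM, PR1 1.97 ± 1.77 FPKM and PR2 0.81 ± 0.488 FPKM. In DMSO seedlings PR4 led with 129.8 ± 18.4 FPKM, PR3 (27.2 ± 5.30 FPKM) and PDF1.3 (13.3 to 30.9 FPKM) overlapped, and PDF1.1 (7.26 ± 1.34 FPKM), PR5 (5.28 ± 1.48 FPKM) and PDF1.2A (4.65 ± 1.97 FPKM) overlapped in turn. PR1 and PR2 were lowest in both groups.

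Single libraries shifted several of the genes together. Treated replicate 3 was the lowest treated library for 8 of the 9 genes, all but PR5, for which it was the highest. It was the lowest treated library for 36.1% of all tested genes and for 51.7% of the genes that rose, and its summed shoot markers stood at 20280 CPM, against 13990 and 13610 CPM in treated replicates 1 and 2. Among the DMSO libraries, replicate 2 was the highest for PR1, PR3, PR4 and PDF1.1 and the lowest for PR5, PDF1.2A, PDF1.2B and PDF1.3. Leaving out either library turned no call of PR1, PR3, PR4, PR5 or PDF1.1.

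Across the 6 libraries, which share their group, PR3, PR4 and PDF1.1 followed each other closely (Pearson r of log2 CPM between 0.98 and 0.994). PDF1.2A correlated with PDF1.2B at 0.696 and with PDF1.3 at 0.567, and with PDF1.1 at 0.159. Patterns most like that of PR4 were those of AT1G56300, AT2G42700 and GUS2 (r = 0.9996, 0.9994 and 0.9994), and those most like that of PR3 were ARFA1E, VTI1B and GEK1 (0.9993, 0.999 and 0.9989). For PDF1.1 they were AT4G31450, AT3G58020 and SNRK2.9 (0.9991, 0.9988 and 0.9986), and for PR5 AT5G10400, AT1G67870 and AT5G50370 (0.9978, 0.9974 and 0.9968). For PR1 they were AT5G20580, VHA-A2 and ECT5 (0.9923, 0.9902 and 0.9894). PDF1.2A was followed most closely by bHLH34, EXO70C1 and AT1G68710 (0.9939, 0.9885 and 0.9653), PDF1.2B by AT1G68470, AT5G17980 and TRM15 (0.9847, 0.978 and 0.976), and PDF1.3 by AT1G52620, AT4G23500 and AT4G22513 (0.9889, 0.9879 and 0.983). Many genes shared the patterns that separate the groups: 5304 of 18793 compared genes reached an r of 0.9 with PR4, while 99 did so with PDF1.3 and 23 with PDF1.2A.

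Relatives of the PR genes differed by family. Of 23 chitinase genes other than PR3, 18 were measured, 13 rose, 3 fell and 2 did not pass, with a median log2 fold change of 3.02, against 35.6% rising and a median of -0.04 over all tested genes. AT2G43620 rose to 979 ± 32.9 CPM in treated seedlings, against 7.36 ± 1.98 CPM in DMSO seedlings (log2 fold change 7.05 ± 0.195), AT1G02360 to 665 ± 41.9 against 13.8 ± 1.71 CPM (5.59 ± 0.134) and CHI to 129 ± 20.4 against 2.84 ± 0.598 CPM (5.50 ± 0.177). PR3 itself, with a log2 fold change of 1.41, lay below the median of these relatives. Those that fell were AT1G56680 (-1.65) and the chitinase-like genes POM1 (-1.07) and CTL2 (-1.17), known for their part in cell wall cellulose. The beta-1,3-glucanase BG3, whose gene lies 5252 bp from PR2 and is 70.9% identical to it in coding sequence, rose to 1.70 ± 0.489 CPM in treated seedlings, against 0.545 ± 0.235 CPM in DMSO seedlings (1.64 ± 0.366, adjusted p = 0.00211). With 34 counts over the DMSO libraries, BG3 passed the filter on low counts through its treated libraries alone. AT4G16260, another glucanase, rose to 543 ± 103 CPM, against 182 ± 59.5 CPM (1.58 ± 0.255), and BG1, the gene next to PR2, had 1 count in treated and 2 counts in DMSO libraries.

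Among genes of the PR1 type, the shares that rose and fell were close to those of all tested genes. Of 21 PR1-type genes other than PR1, 13 were measured, and 4 rose, 4 fell and 5 did not pass (median -0.45), which is 30.8% in each direction, against 35.6% rising and 35.8% falling over all tested genes. PRB1, a basic relative of PR1 that is 83.5% identical in coding sequence, rose to 4.04 ± 1.28 CPM in treated seedlings, against 2.29 ± 0.589 CPM in DMSO seedlings (0.81 ± 0.284, adjusted p = 0.0257). Its groups overlapped, with 2.56 CPM in treated replicate 3 and 2.92 CPM in DMSO replicate 1. AT1G50060 (0.78), AT4G07820 (0.73) and AT2G19970 (0.35) rose, whereas AT4G25780 (-2.79), AT5G66590 (-1.92) and AT5G57625 (-0.56) fell. The count that rose was 2 in place of 4 without treated replicate 1 and without DMSO replicate 3. Among 18 thaumatin-like genes other than PR5, 14 were measured, and 2 rose, 7 fell and 5 did not pass (median -0.69), against 35.6% rising and 35.8% falling over all tested genes. OSM34, an osmotin, rose to 261 ± 46.2 CPM in treated seedlings, against 50.8 ± 16.0 CPM in DMSO seedlings (2.36 ± 0.247), and AT5G24620 rose by 0.52. AT1G73620 (-1.90), ATLP-1 (-1.67) and AT2G28790 (-1.50) fell along with PR5.

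Outside the PDF1.1 to PDF1.3 copies, 11 further defensin genes of the PDF families were listed, PDF1.2C among them, of which 4 were measured. PDF1.4 rose to 85.1 ± 6.74 CPM in treated seedlings, against 6.59 ± 1.74 CPM in DMSO seedlings (log2 fold change 3.69 ± 0.168, adjusted p = 9.9e-08). PDF2.1 (-0.43), LCR69 (-0.39) and LCR68 (-0.74) fell, and LCR69 was the most abundant of them with 284 ± 21.4 CPM in treated and 373 ± 13.3 CPM in DMSO seedlings. The sum over the 11 genes was 410.5 to 452.8 CPM in treated and 467.0 to 480.5 CPM in DMSO libraries.

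Most regulators of the salicylic acid response rose. Of 23 listed and measured, 19 rose and 4 did not pass (median log2 fold change 2.03), against 35.6% rising and a median of -0.04 over all tested genes. None fell in edgeR's test, nor at an unadjusted p under 0.05 or in DESeq2, while limma on FPKM called 1 lower, NIMIN-3. NPR1, the receptor through which PR1 is switched on, rose to 128 ± 5.04 CPM in treated seedlings, against 42.5 ± 2.19 CPM in DMSO seedlings (1.59 ± 0.0799, adjusted p = 3.2e-08). CBP60G, a factor that activates salicylic acid synthesis, rose to 557 ± 27.7 against 4.84 ± 1.19 CPM (6.84 ± 0.170), and WRKY70 to 168 ± 17.6 against 5.65 ± 1.28 CPM (4.89 ± 0.163). NIMIN1, which binds NPR1 and represses PR1, had 847 counts in treated libraries and 0 in DMSO libraries. This is a ratio of 279.5 against a floor of 3 counts over the DMSO group. WRKY62 had 192 counts in treated and 3 in DMSO libraries, which is a ratio of 63.4 (95% interval from counting, 21.4 to 310.0). Beside these regulators, the highest treated values were 3.09 CPM for PR1 (replicate 2), 1.73 CPM for PR2 (replicate 1) and 2.68 CPM for PR5 (replicate 3). PR5 held 3.78 to 6.44 CPM in DMSO libraries.

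Regulators of PDF1.2 in the jasmonate and ethylene pathways rose in part. Of 15 listed and measured, 9 rose, 1 fell and 5 did not pass (median 0.58), against 35.6% rising and 35.8% falling over all tested genes. ERF1 rose to 8.86 ± 0.826 CPM in treated seedlings, against 0.601 ± 0.299 CPM in DMSO seedlings (3.87 ± 0.255, adjusted p = 2.5e-07). With 38 counts over the DMSO libraries, ERF1 passed the filter on low counts through its treated libraries alone. JAZ1, a repressor of jasmonate signalling that jasmonate itself induces, rose to 61.1 ± 2.71 against 8.39 ± 2.47 CPM (2.86 ± 0.181), and ERF6 to 50.9 ± 6.98 against 12.0 ± 3.98 CPM (2.09 ± 0.232). ORA59, which binds the GCC boxes of PDF1.2, did not pass, with 8.65 ± 1.94 CPM in treated and 6.55 ± 1.44 CPM in DMSO seedlings (0.40 ± 0.201, adjusted p = 0.0954). MYC2, which represses PDF1.2, did not pass either, with 41.3 ± 13.2 CPM in treated and 37.0 ± 10.7 CPM in DMSO seedlings (0.17 ± 0.289, adjusted p = 0.627). EIL1, a transcription factor of ethylene signalling, fell by 0.33 (adjusted p = 0.0185), a call lost without treated replicate 1 or 2 or DMSO replicate 2.

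**Figure D4:**
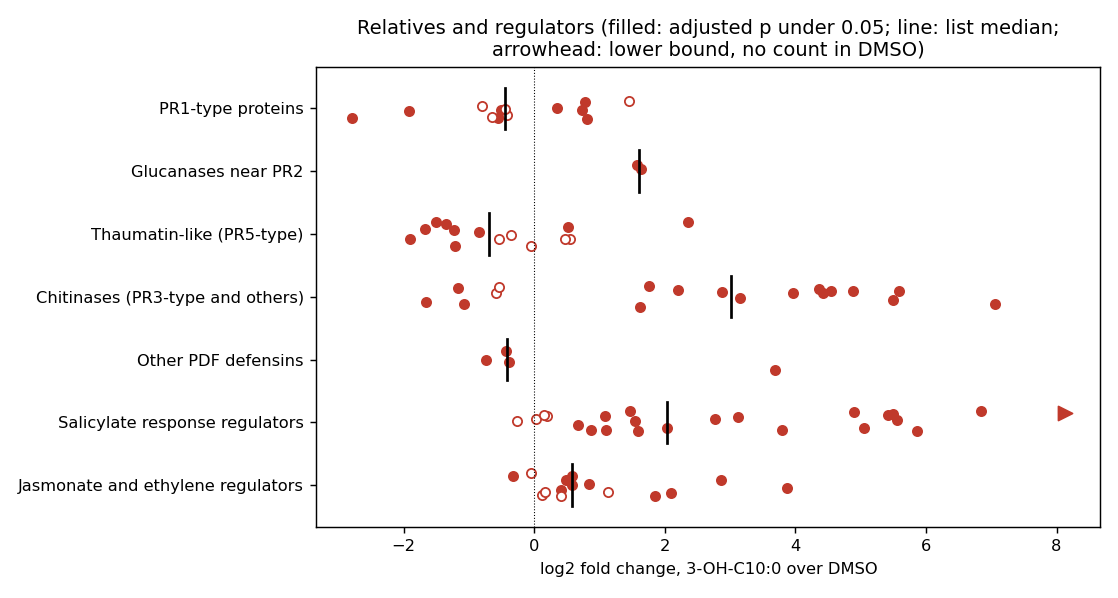
Log2 fold change, 3-OH-C10:0 over DMSO, of the measured members of 7 gene lists, 1 point per gene, filled where the adjusted p was under 0.05, with the list median as a line. Chitinases and salicylic acid regulators lie mostly to the right, with medians of 3.02 and 2.03, and thaumatin-like genes mostly to the left with a median of -0.69. The arrowhead is NIMIN1, drawn at 279.5-fold, its ratio to the floor of 3 counts over the DMSO group.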

How the data were processed

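RNA-seq of 6 seedling libraries was analysed, 3 treated with 3-OH-C10:0 and 3 with DMSO, as grouped by the labels. Per the submitters' processing notes the authors used build TAIR10 with RSEM, StringTie 1.3.1, HISAT2 2.2.4, Bowtie2 2.2.8 and fastp 0.18.0. The role of each tool, the read length and the strandedness are not given in those notes or in the labels. Estimated counts for each locus were deposited without normalisation, per the file headers, and 3.618% of the values were not whole, so they were rounded here. The FPKM values were made by the authors and used as deposited, per the file headers, for levels per length.

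Genes were kept by filterByExpr (minimum count 10), which left 19768 of 28259 loci, scaled by TMM and tested with edgeR 4.0.16 (robust quasi-likelihood F test, two-sided, no replicate block) in R 4.3.3, with Benjamini-Hochberg adjustment and a threshold of 0.05. A gene can pass this filter through 1 group alone. PR1, ERF1, BG3, NIMIN1, WRKY62 and AT5G43570 did so through treated, and AT4G25780 and AT1G66100 through DMSO libraries. The common biological coefficient of variation was 11.3%. Counts were simulated for this comparison with that variation (19567 tested genes). The fit recovered 96% to 100% of 50 genes at each log2 fold change of -2, -1, 1 and 2. A far smaller share of genes was changed there than the 71.4% called in the data. The CPM of PR1, PDF1.2A, PDF1.2B and PDF1.3 varied more, by 89%, 60%, 39% and 53% (SD over mean) in treated libraries. In DMSO libraries their values were 131%, 41%, 97% and 39%. The recovery therefore does not give the power for genes as variable as these. Alternatives were other size factors, no filter, a replicate block, each library left out, DESeq2 1.42.0 and limma 3.58.1 on log2(FPKM + 1) and log2(FPKM + 0.1) for loci with at least 0.5 FPKM in 3 libraries, and without that filter.

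Positions, coding and upstream sequences were read from TAIR10.1 by locus code (9 of 9 matched), with Biopython 1.88 for alignment. The files carry no coordinates. The 9 genes and the gene lists were chosen with earlier results of these data known. Beside the 9 genes, named genes are the 3 highest and 3 lowest log2 fold changes of each list among calls whose higher group averaged 20 counts or more and whose groups do not overlap, 10 genes always named (PDF1.2C, PRB1, BG3, BG1, NPR1, NIMIN1, WRKY70, ORA59, ERF1 and MYC2), and the 3 genes of highest Pearson r (log2 CPM, prior count 0.5, 6 libraries). Not every gene that this rule takes is named. Libraries of the same group all differed beyond sampling noise, with a chi-square per gene that averaged 4.93 to 22.4.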

Additional observations from a re-analysis of the deposited data

How the results depend on the processing

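The calls of PR1, PR3, PR4, PR5 and PDF1.1 kept direction and side of the threshold under all 14 alternatives, with log2 fold changes of 1.252 to 5.63 for PR1, 1.29 to 1.59 for PR3, 1.64 to 1.99 for PR4, -1.17 to -0.78 for PR5 and 1.19 to 1.53 for PDF1.1. The lowest value of PR1 is that of limma on log2(FPKM + 1), a scale that understates changes of scarce transcripts. PR1 passed the filter on low counts through its treated libraries alone. Its highest adjusted p was 0.0411, in edgeR without DMSO replicate 1. PDF1.3 passed as lower under the replicate block (-0.95, adjusted p = 0.0388), and leaving out 1 library gave -1.43 to -0.64. Same-numbered libraries deviated from their group means with correlations of 0.0223, -0.0206 and 0.0728, and differently numbered ones with -0.0888 to 0.0583. These values show no sign of pairing over all genes. With 3 libraries per group they cannot tell whether the numbers pair the samples. PDF1.2A ranged from -0.10 to 0.80 with 1 library left out. PDF1.2B reversed to 0.0208 with DESeq2 size factors, 0.0113 without the filter, 0.125 under the replicate block, 0.0433 with DESeq2, 0.135 with limma on log2(FPKM + 1) with or without a filter and 0.341 with log2(FPKM + 0.1), and ranged from -0.47 to 1.096 with 1 library left out. The cause was not tested. The ratio of PR2 to its DMSO floor ranged from 13.7 to 28.0 with 1 library left out. Over all genes, 6392 to 7226 rose and 6377 to 7959 fell. Of 280 list counts under alternatives 263 stayed within 1.5 times of the main count. PR1, PR2, PDF1.2B and PDF1.2C rest on few counts that also spread between libraries of a group, and the part of depth in this was not tested.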

Other observations

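Thionins and protease inhibitors were read as further small defence proteins. Of 9 genes for thionins and for protease inhibitors of the PR6 type, 5 were measured, of which 3 rose and 2 fell, against 35.6% rising and 35.8% falling over all tested genes. With 5 genes, no share is read from these counts. The inhibitor AT2G38870 rose to 1462 ± 253 CPM in treated seedlings, against 55.6 ± 5.28 CPM in DMSO seedlings (log2 fold change 4.72 ± 0.167, edgeR adjusted p = 2.7e-09), UPI to 639 ± 55.4 against 17.6 ± 3.04 CPM (5.18 ± 0.153) and AT5G43570 to 9.64 ± 3.14 against 0.224 ± 0.0635 CPM (5.39 ± 0.362). With 14 counts over the DMSO libraries, AT5G43570 passed the filter on low counts through its treated libraries alone. The thionin THI2.2 fell to 8.94 ± 2.42 CPM in treated seedlings, against 22.6 ± 4.54 CPM in DMSO seedlings (-1.36 ± 0.212), and AT1G66100 fell as well (-2.70 ± 0.368). THI2.1, a thionin known as a jasmonate marker, had no count in any library, and it was named after its value was seen.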
